A study of Mus musculus with 5 samples.

Results

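The regions described here lay between genes and carried trimethylation of lysine 27 on histone H3 (H3K27me3) in both Kdm6b-cKO libraries and in neither WT library. The peaks of 4 H3K27me3 ChIP-seq lists were merged on the 19 autosomes wherever they shared at least 1 bp, which gave 47569 regions, 26791 of them intergenic. A region was a member when both Kdm6b-cKO lists and no WT list held a peak in it, and when it overlapped neither the body of a protein-coding gene nor the 3 kb on either side of a protein-coding transcription start site (TSS) of GENCODE M21 on mm10. The rule gave 3882 members, 52.8% of the 7346 knockout-only regions. The members were therefore chosen by the measured peak calls, and every difference between the genotypes inside them is a description of that choice and carries no test.

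The libraries came from dermal fibroblasts of mouse embryo skin at E18.5, expanded in culture, from the Kdm6b-cKO replicates numbered 3 and 4, and from WT replicates 7 and 9. In Kdm6b-cKO embryos the floxed Kdm6b alleles (Kdm6b fl/fl) were deleted by Twist2-Cre, also called Dermo1Cre, on a C57BL/6 background, so the deletion was limited to cells that had expressed Twist2, mainly dermal mesenchyme. The labels give a sort for GFP for every sample, WT included, and the mT/mG reporter of the ROSA26 locus was used in the study. The sources used here do not say whether the 2 samples of a genotype came from separate embryos. The authors subsampled the libraries to similar read numbers, but the peak lists hold no read counts, so the reads behind a peak are unknown. In such bulk cultures, more cells with the mark and more mark per cell cannot be told apart.

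H3K27me3 is placed by Polycomb repressive complex 2 and is found at genes that are kept silent, often developmental regulators of other lineages. Kdm6b, also named Jmjd3, is a demethylase that takes the mark away. Stretches rich in CpG, the dinucleotide C followed by G, are known sites where the Polycomb complexes settle in mammalian genomes, and the mark can spread from them over many kilobases of intergenic sequence. Intergenic DNA also holds enhancers and noncoding genes, which a promoter-centred view leaves out.

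The sequences that follow show what members looked like at the base level. For each of 7 members, 4 of them among the longest and 3 among the most CpG-rich, the 200 bp with the most CpG are printed 5′ to 3′ on the plus strand of mm10, from the RefSeq genome GRCm38.p6. Capitals mark each CpG.
chr4:131252967-131253166, in the longest member: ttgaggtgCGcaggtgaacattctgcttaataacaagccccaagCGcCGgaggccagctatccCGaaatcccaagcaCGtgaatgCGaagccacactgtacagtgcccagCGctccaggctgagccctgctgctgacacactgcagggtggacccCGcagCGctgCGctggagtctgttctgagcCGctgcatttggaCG
chr6:114094506-114094705, upstream of Slc6a11: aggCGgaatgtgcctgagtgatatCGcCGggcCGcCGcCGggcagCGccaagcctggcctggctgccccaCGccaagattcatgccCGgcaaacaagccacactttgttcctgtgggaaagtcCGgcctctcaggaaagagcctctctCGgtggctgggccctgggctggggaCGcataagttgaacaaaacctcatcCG
chr5:120252178-120252377, between Rbm19 and Lhx5: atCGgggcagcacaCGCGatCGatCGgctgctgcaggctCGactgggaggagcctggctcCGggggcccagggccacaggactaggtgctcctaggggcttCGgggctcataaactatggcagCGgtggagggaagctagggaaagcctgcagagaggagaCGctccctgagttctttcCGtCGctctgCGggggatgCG
chr15:74045447-74045646, far from any WT peak: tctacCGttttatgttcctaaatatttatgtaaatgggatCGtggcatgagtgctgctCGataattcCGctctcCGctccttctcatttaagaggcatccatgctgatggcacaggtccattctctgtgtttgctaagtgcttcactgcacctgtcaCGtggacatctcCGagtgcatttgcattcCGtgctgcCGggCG
chr7:143464860-143465059, near Cdkn1c: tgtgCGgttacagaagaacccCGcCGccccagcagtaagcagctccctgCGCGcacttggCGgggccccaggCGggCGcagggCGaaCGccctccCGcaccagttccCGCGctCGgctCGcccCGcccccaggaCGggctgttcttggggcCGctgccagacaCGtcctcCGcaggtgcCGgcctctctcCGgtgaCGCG
chr7:138829860-138830059, near Ppp2r2d: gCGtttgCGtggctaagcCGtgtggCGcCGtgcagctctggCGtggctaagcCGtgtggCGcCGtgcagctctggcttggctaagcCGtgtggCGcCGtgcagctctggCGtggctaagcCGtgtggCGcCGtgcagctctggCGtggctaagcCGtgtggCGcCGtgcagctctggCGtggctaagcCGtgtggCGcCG
chr4:146580417-146580616, near Zfp993: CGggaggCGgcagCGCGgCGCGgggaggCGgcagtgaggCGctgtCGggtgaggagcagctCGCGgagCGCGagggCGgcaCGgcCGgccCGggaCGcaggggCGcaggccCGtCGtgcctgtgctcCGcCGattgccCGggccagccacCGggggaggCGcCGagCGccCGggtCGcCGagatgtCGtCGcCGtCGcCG

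The window of the longest member held 12 CpG, and those upstream of Slc6a11 and between Rbm19 and Lhx5 held 13 and 14. That of the chromosome 15 member, 201 kb from the nearest WT peak, held 10. The longest member and the one near Zfp993 lay farther still from a WT peak, at 286 and 520 kb. The window near Cdkn1c held 24 CpG at 74.0% G+C, without any repeat-masked base. The window near Ppp2r2d also held 24 CpG, but in a short unit that returned several times in tandem. The window near Zfp993 held 36 CpG, and 91.7% of the 31-base words read from that member every 100 bp were found again elsewhere in the genome. The share was 23.5% for the member near Ppp2r2d and 0% for that near Cdkn1c, so these CpG-dense members ranged from single-copy to mostly repeated sequence. Among the 6 densest members, those not printed had shares of 63.6% near Obox7, the densest of all, 80% near AA467197 and 0% near Psd2.

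The libraries differed in how much of the autosomes they marked, and this bears on the number of members. Kdm6b-cKO replicates 3 and 4 held 38508 and 36626 autosomal peaks over 133.3 and 115.3 Mb, against 25671 and 19210 peaks over 81.8 and 55.3 Mb in WT replicates 7 and 9. Members were 14.5% of all intergenic regions, and knockout-only regions were 15.4% of all regions. In gene bodies 2618 regions were knockout-only and at promoters 846. The opposite pattern, with peaks of WT replicates 7 and 9 and none of either Kdm6b-cKO replicate, was seen in 145 intergenic regions. When the rule was applied without Kdm6b-cKO replicate 3 it took 10175 regions, without replicate 4 it took 11825, without WT replicate 7 it took 6207 and without WT replicate 9 it took 4312. When each list was cut to its 19210 strongest peaks, as many as WT replicate 9 held, 956 intergenic regions were knockout-only and 467 WT-only. When each was instead cut to the strongest peaks that covered 55.3 Mb, the order of the 2 counts turned round, with 53 knockout-only and 1199 WT-only regions. It also turned round when only the Kdm6b-cKO lists had to reach a −log10 q of 5, with 27 and 4091 regions, but not when all lists had to, with 288 and 5. A minimum for the Kdm6b-cKO lists alone removes only Kdm6b-cKO peaks, and so favours WT-only regions by construction. The cuts to equal number and equal length kept the list of WT replicate 9 whole and removed weaker peaks from the other lists only. The part of this in the counts was not tested.

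Members were short and modest in height. The median member was 1.83 kb long, with quartiles of 1.20 and 2.77 kb and a range of 0.262 to 20.4 kb. In 3538 members each Kdm6b-cKO library had a single peak, and 190 members were longer than 5 kb. Together they covered 8.60 Mb, of which 6.67 Mb was marked in Kdm6b-cKO replicate 3, 5.60 Mb in replicate 4 and 3.67 Mb in both, with 0 in the WT libraries by the rule. The part marked in both Kdm6b-cKO libraries made up a median of 39.3% of a member.

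The authors' fold enrichment over background, averaged over a broad peak, had a median of 2.79 in Kdm6b-cKO replicate 3 and 2.77 in replicate 4. Their −log10 q had medians of 2.89 and 2.73, which placed the median member at percentile 41.4 and 37.6 of its own list. Intergenic regions called in all 4 libraries were longer, at a median of 6.20 kb, and higher in their lists, at percentiles 75.3 and 67.2. Members thus spanned the middle of both Kdm6b-cKO lists, with quartiles of 23.6 and 59.6 in replicate 3 and of 20.3 and 58.1 in replicate 4. Intergenic regions of replicate 3 alone or replicate 4 alone ranked lower, at median percentiles of 25.02 and 23.9. Across the 3882 members the folds of the 2 Kdm6b-cKO libraries correlated weakly (Pearson's r = 0.32, Spearman's rho = 0.22), and their covered lengths more closely (r = 0.66, rho = 0.41). Members are not replicates, and the covered lengths share the extent of the merged region.

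The longest members were covered over most of their length in both Kdm6b-cKO libraries. The longest, chr4:131246664-131267036, was covered over 14.7 and 17.4 kb in Kdm6b-cKO replicates 3 and 4, with 0 in both WT libraries. It lay 302 kb from the TSS of Matn1, which encodes a cartilage matrix protein, and 286 kb from the nearest WT peak. The next, chr6:114087310-114106905, was covered over 18.6 and 16.9 kb in Kdm6b-cKO replicates 3 and 4. It ended 24.3 kb upstream of Slc6a11, a transporter of the neurotransmitter GABA, and 11.9 kb from a WT peak. The third, chr17:27369212-27386633, was covered over 12.8 and 16.4 kb in Kdm6b-cKO replicates 3 and 4. It lay 135 kb from the TSS of Grm4, a metabotropic glutamate receptor gene, and 5.34 kb from a WT peak. The 8 longest members ranged from 13.285 to 20.4 kb in length, held 49.3% to 53.1% G+C, and had folds between 2.92 and 3.38. Of the 20 longest members, 0 were repeat-masked over more than 50% of their bases.

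**Figure D1:**
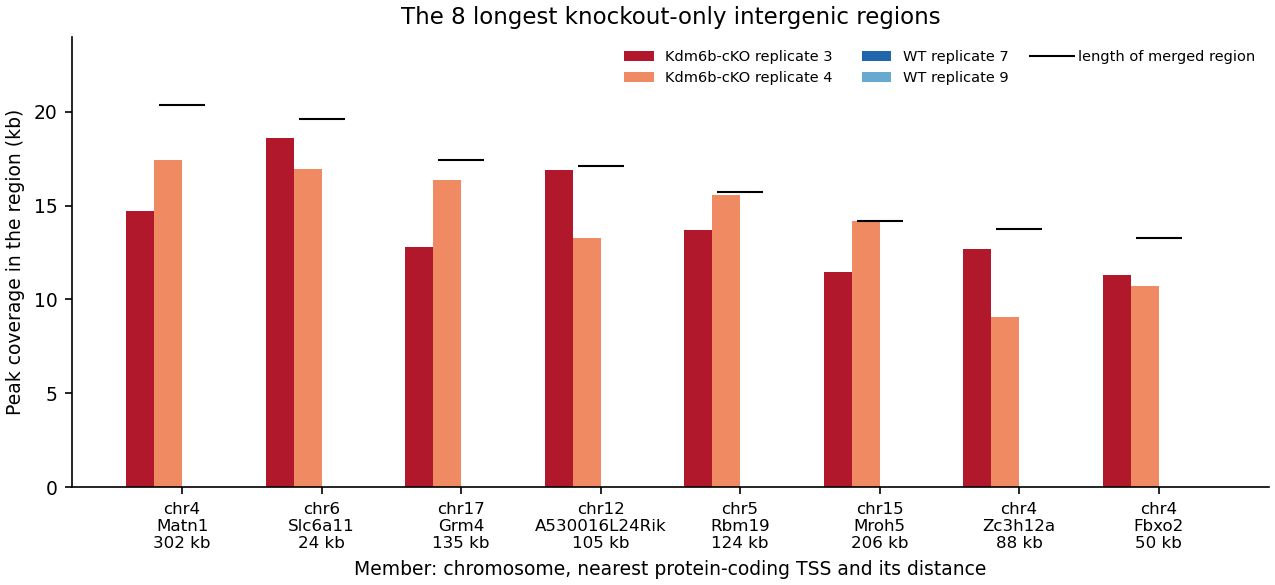
Peak coverage in kb (vertical axis) of the 8 longest members in each Kdm6b-cKO replicate and each WT replicate, with the length of the merged region as a black line. Both Kdm6b-cKO libraries covered between 9.05 and 18.6 kb of each, and the WT bars are at 0 by the rule that chose the regions.

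Members were richer in G+C and CpG than the intergenic genome and than the intergenic regions that all libraries shared, although they were the shorter regions. Their median G+C was 48.1%, against 50% in knockout-only gene body regions, 45.2% in intergenic regions of all 4 libraries and 40.9% in 1 kb tiles of the whole intergenic autosomes. Members were above regions of all 4 libraries, and above tiles, on 19 of 19 chromosomes. Members together with the 10 kb on each side had a median of 45.9%. In CpG density the surroundings did not stand below the members, with a median of 10.6 per kb for members taken with those 10 kb. CpG density was 10.3 per kb in members, against 12.1 in gene body regions, 9.47 in regions of all 4 libraries and 6 in tiles, and it was above that of all-library regions on 18 of 19 chromosomes. Repeat-masked sequence made up 20.8% of the median member, against 14.6% of gene body regions, 25.1% of regions of all 4 libraries and 28.9% of tiles.

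**Figure D2:**
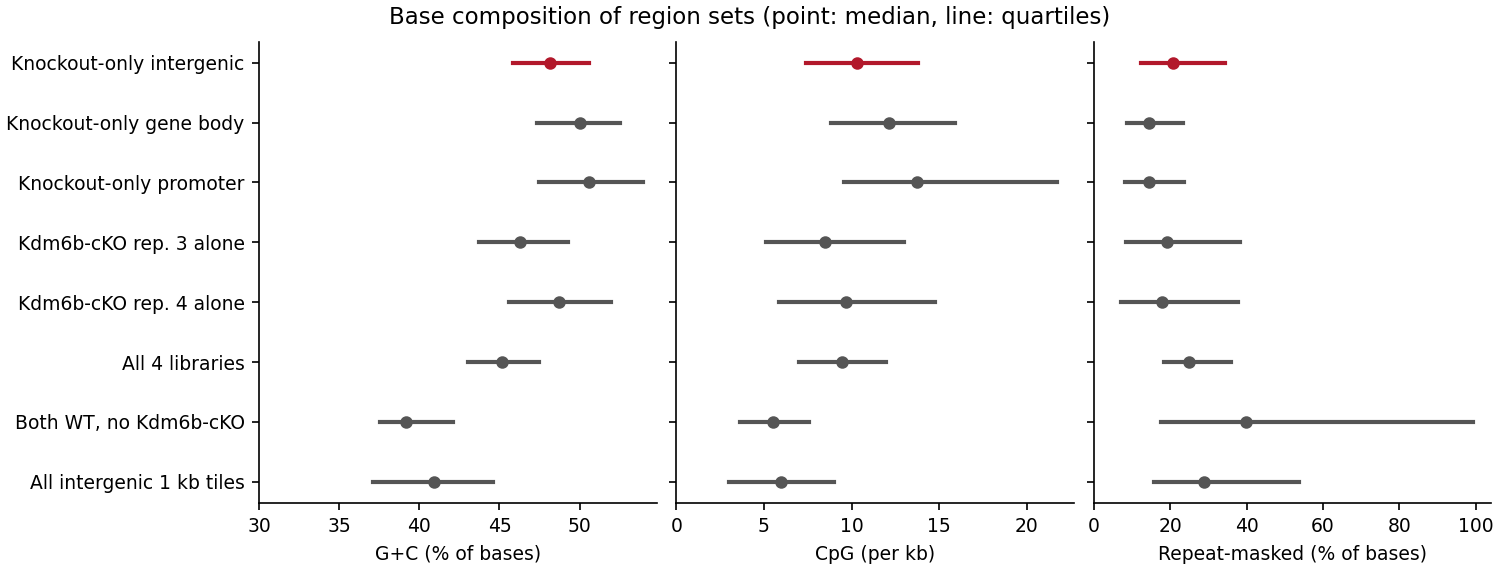
G+C content, CpG per kb and repeat-masked share (horizontal axes) of members, in red, and of comparison sets, in grey, with medians as points and quartiles as lines. Members, at 48.1% G+C, sit between knockout-only gene body regions at 50% and intergenic regions of all 4 libraries at 45.2%.

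The base composition of regions also differed between single libraries. Intergenic regions called in Kdm6b-cKO replicate 3 alone had a median G+C of 46.3% and those of replicate 4 alone 48.7%, while the 145 regions of both WT libraries alone had 39.2%. What part library differences in base composition had in the composition of members was not tested.

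CpG islands, taken as stretches of at least 200 bp with at least 50% G+C and an observed to expected CpG ratio of at least 0.6, lay in 924 members, or 23.8%. The share was 32.1% in gene body regions and 45.9% in promoter regions. It was 44.9% in intergenic regions of all 4 libraries, which were the longer ones. On an equal footing, over the central 1 kb, islands were found in 15.1% of members, 18.4% of gene body regions, 12.4% of regions of all 4 libraries and 6.62% of tiles. By a stricter definition of 500 bp, 55% G+C and a ratio of 0.65, 74 members held an island, or 1.91%, so most islands in members were short or of low density. Members with an island by the wider definition were longer, at a median of 2.29 kb against 1.72 kb for those without, and 54.2% of the members over 5 kb held one.

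Short sequence motifs were counted in the central 1 kb. The core of the EBF site, CCCNNGGG, was found in 24.99% of members, against 33.2% of knockout-only gene body regions, 19.1% of intergenic regions of all 4 libraries and 12.9% of tiles. EBF1 is a transcription factor of early fat and B cell development. Every fixed letter of this motif is C or G, and the median G+C of these sets falls in the same order. The part of base composition in the motif shares was not tested. Of the other motifs, those of TCF/LEF, AP-1 and GATA were less frequent in members than in tiles. The TCF/LEF motif ATCAAAG, of the factors that act at the end of the Wnt pathway, was found in 15.8% of members and 20.6% of tiles, the AP-1 motif TGANTCA in 21.8% and 26.9%, and the GATA motif AGATAAG in 11.4% and 14.6%. The RUNX motif TGTGGTT was found in 21.7% of members and 21.01% of tiles, and the run CGCGCG in 1.52% and 0.874%. Both strands were searched, and a match of letters is not a bound site.

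Most members lay near other marked DNA. The nearest WT peak was a median of 7.97 kb away, 38.4% of members had one within 5 kb and 55.1% within 10 kb, and 671 members (17.3%) were more than 50 kb from any WT peak. Members near to and far from WT peaks were alike in size, with a median length of 1.86 kb for those within 5 kb of a WT peak and 1.75 kb for those more than 50 kb away, and folds of 2.79 and 2.77 against 2.78 and 2.76 in Kdm6b-cKO replicates 3 and 4. The nearest protein-coding TSS was a median of 39.99 kb from a member, against 131 kb from a tile, and 56.9% of members but 30.7% of tiles had a TSS within 50 kb. Marked intergenic regions of other patterns were placed much like members. The TSS was a median of 46.5 and 44.4 kb from regions of Kdm6b-cKO replicate 3 alone and replicate 4 alone, and 34.3 kb from regions of all 4 libraries. A WT peak lay within 10 kb of 52.6% and 48.9% of the regions of one Kdm6b-cKO library, and of 51.9% of knockout-only gene body regions. Nearness to a WT peak was thus not particular to members, and it was not counted for tiles. The nearest other region was one of all 4 libraries for 15.9% of members, while such regions were 20.6% of all regions.

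The neighbourhood of members was itself marked over more bases in Kdm6b-cKO libraries. Between 5 and 25 kb from the edge of a member, 21.2% and 18.1% of bases were covered in Kdm6b-cKO replicates 3 and 4, against 9.78% and 6.09% in WT replicates 7 and 9. The ratio of the group means was 2.48 there and 2.23 between 25 and 100 kb, against 1.83 over all intergenic tiles. Around gene body members of the same pattern the ratios were 2.99 and 2.48, and around intergenic regions of all 4 libraries 1.64 and 1.65. Up to 5 kb the ratio was 3.44, where the rule already excludes WT peaks that touch the member. The rings can hold other members, so these values are not independent of the rule.

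**Figure D3:**
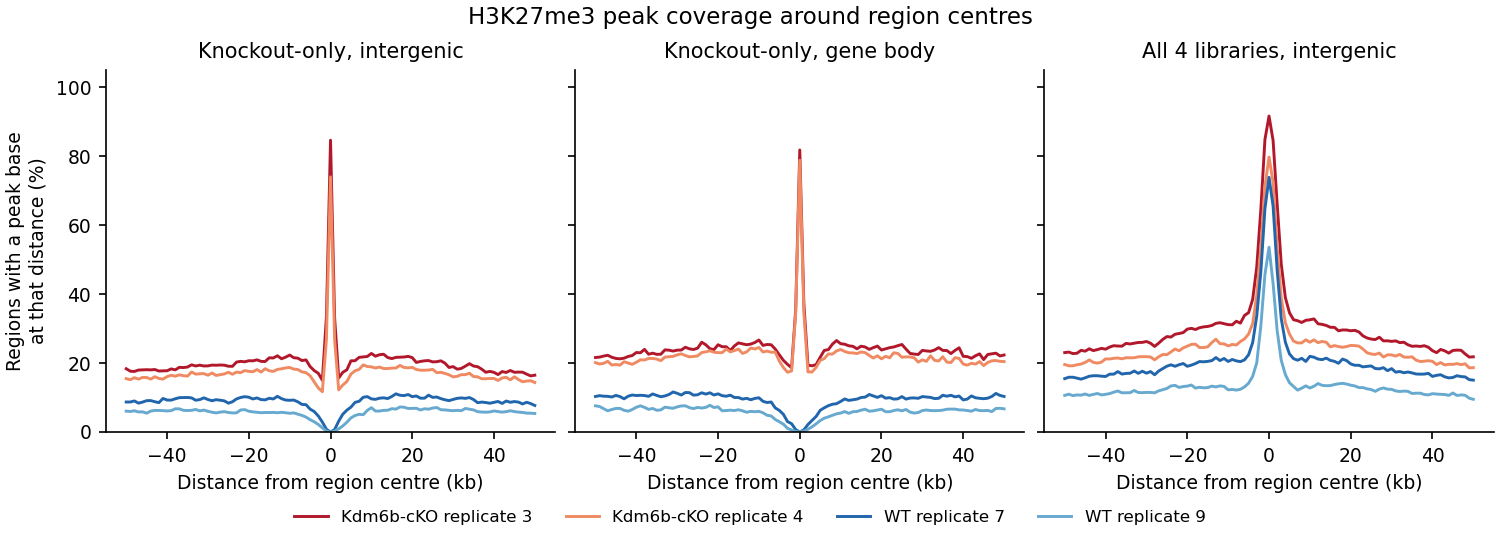
Share of regions with a peak base (vertical axis, %) at each distance from the region centre (horizontal axis, kb) for members, knockout-only gene body regions and intergenic regions of all 4 libraries. Beyond the central peak both Kdm6b-cKO lines stay above both WT lines in each panel, and WT lines reach 0 at the centre of the knockout-only regions by the rule.

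Somewhat more members stood alone than in clusters. When members at most 25 kb apart were joined, 2093 (53.9%) had no other member near and 1789 (46.1%) fell into 682 clusters of at least 2, and 95 clusters held 4 or more. The largest held 14 members in 125 kb, chr6:114494376-114619354, between Hrh1, the histamine H1 receptor gene, and Atg7, a gene of autophagy. Over this span the peaks of Kdm6b-cKO replicates 3 and 4 covered 79.1 and 84.2 kb, against 10.6 and 1.60 kb in WT replicates 7 and 9. A second cluster, of 10 members between Chst1 and Syt13 (chr2:92687103-92837315), was covered over 54.97 and 48.2 kb in the Kdm6b-cKO replicates, against 12.3 and 3.70 kb in WT. Both spans thus held WT peaks as well, over fewer kb than either Kdm6b-cKO replicate covered. The largest clusters, here and below, were chosen for their number of members, and their spans include the members. Lower WT than Kdm6b-cKO coverage in them therefore follows in part from the rule. Between Hrh1 and Atg7, the members alone held 33.7 and 31.2 kb of the coverage in Kdm6b-cKO replicates 3 and 4.

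A cluster of 10 members, chr8:12178361-12296560, lay 98.7 kb from Sox1, which encodes a transcription factor of neural progenitors, around the gene A230072I06Rik. It was covered over 59.3 and 56.7 kb in Kdm6b-cKO replicates 3 and 4, against 3.22 and 3.904 kb in WT replicates 7 and 9. The cluster of 8 members at chr5:120314333-120404938 ended 26.8 kb from Lhx5, a LIM homeobox gene of the developing brain, and was covered over 38.7 and 32.2 kb in the Kdm6b-cKO replicates, against 2.86 and 2.40 kb in WT. The cluster of 9 members between Ppp4r2 and Pdzrn3 (chr6:100903538-100974712) was thinner, with a coverage of 23.01 and 12.2 kb in the Kdm6b-cKO replicates, against 4.32 and 0.247 kb in WT. One of the 6 held no WT peak at all, the 8 members at chr15:73914331-74001826 between Gm6569 and Adgrb1, an adhesion receptor gene, where peaks of Kdm6b-cKO replicates 3 and 4 took 22.4 and 21.3 kb.

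**Figure D4:**
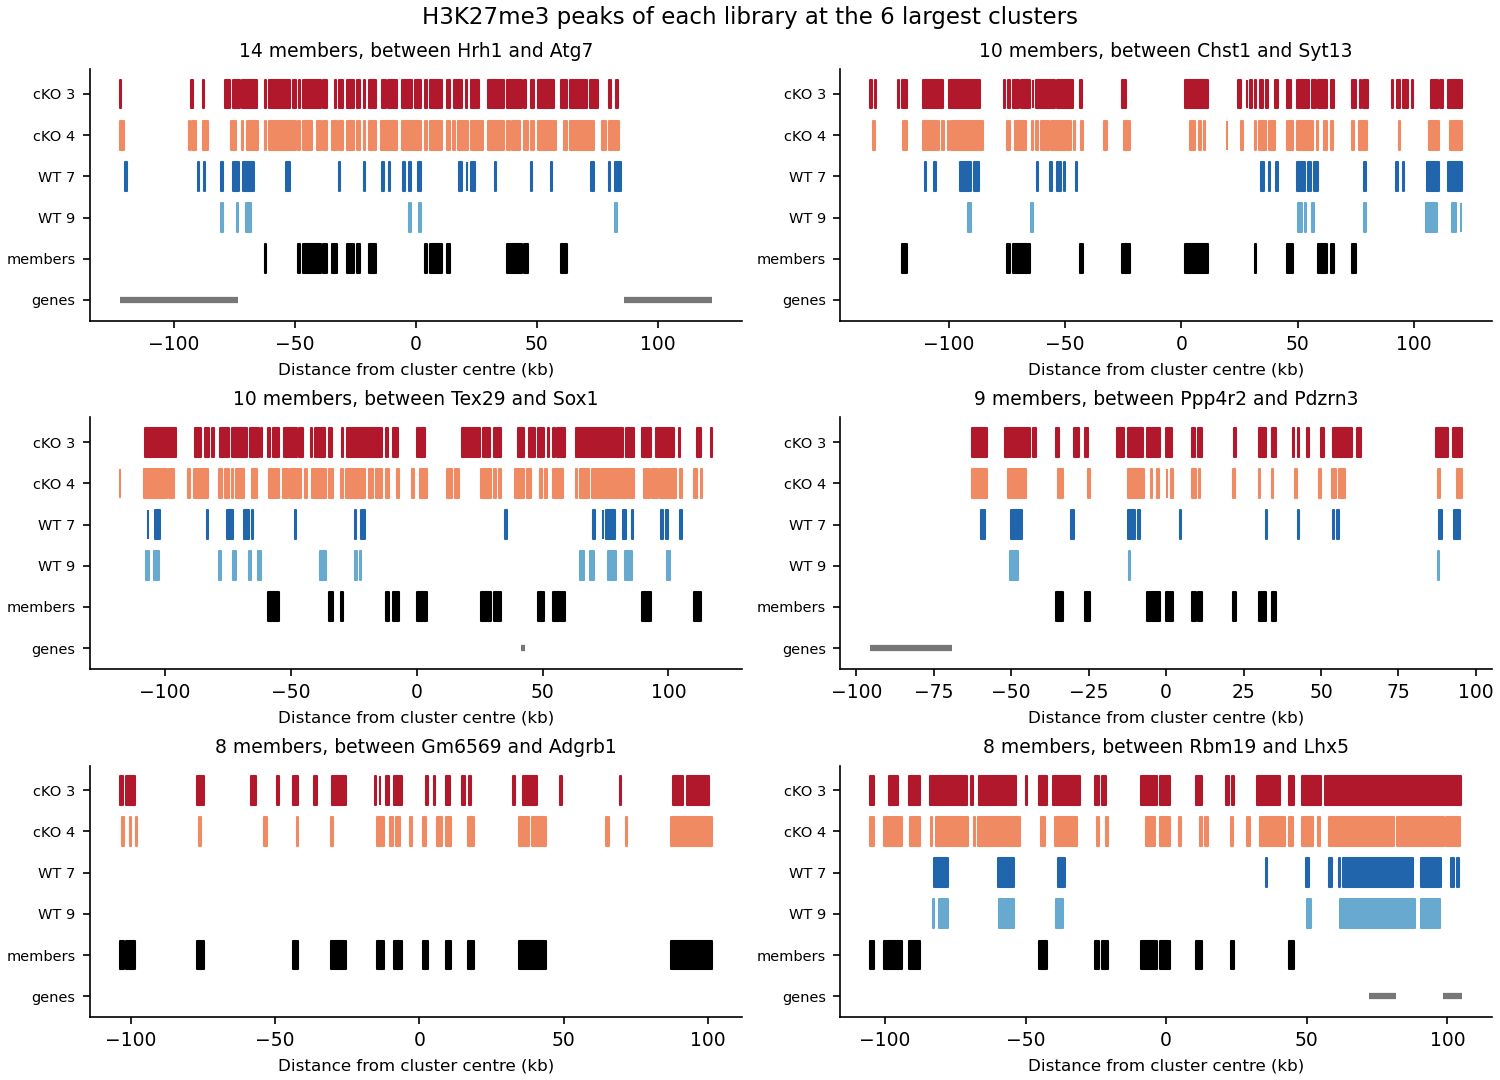
Peaks of each library, members and protein-coding genes (rows) against the distance from the cluster centre in kb at the 6 largest clusters, with 60 kb shown on each side, where members outside the cluster can also appear. Kdm6b-cKO peaks fill much of each span, with 79.1 and 84.2 kb at the cluster between Hrh1 and Atg7, and the cluster between Gm6569 and Adgrb1 has no WT peak.

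Members were unevenly spread over the chromosomes, at 1.58 per Mb of intergenic sequence on chromosome 3 and 4.93 on chromosome 11. Across the 19 chromosomes this density correlated with the median G+C of intergenic tiles (r = 0.85, rho = 0.83) and with the density of intergenic regions of all 4 libraries (r = 0.87, rho = 0.87). All chromosomes share the same 4 libraries, and G+C and the 2 densities vary together along them.

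Near protein-coding genes, members were counted within 50 kb of the TSS. Of 20807 genes, 3013 had a member there (14.5%), and lists of genes were read beside that share. Neighbouring genes can share a member, so genes of a list are not independent. The genes whose windows are described were chosen for their member length, and the windows include the members. Higher Kdm6b-cKO than WT coverage in them thus follows in part from the rule. Families of developmental transcription factors stood above all genes. A member lay near 8 of 18 Sox genes, 18 of 41 Fox genes, 10 of 24 Irx, Tbx and Six-family genes and 17 of 48 neuronal transcription factor genes, which is 44.4%, 43.9%, 41.7% and 35.4%. Member sequence took 20.995 bp per intergenic kb around Sox genes, 30.04 bp around Fox genes, 36.4 bp around Irx, Tbx and Six-family genes and 19.3 bp around neuronal factor genes, against 11.7 bp around all genes. The windows of these lists also held more intergenic sequence, with medians between 46.6 and 64.1 kb against 34.7 kb for all genes.

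At Irx3, which encodes a homeobox factor of the Iroquois family, 4 members totalled 15.9 kb. The TSS ± 50 kb was covered over 36.2 and 29.9 kb in Kdm6b-cKO replicates 3 and 4, against 8.79 and 7.25 kb in WT replicates 7 and 9. The nearest of the 4 lay 4.51 kb downstream of the TSS, was 3.97 kb long and was covered over 1.95 and 3.97 kb in the Kdm6b-cKO libraries. At Tbx19, a T-box gene of the pituitary, 2 members stood in a window covered over 23.8 and 13.1 kb in the Kdm6b-cKO replicates, against 2.78 and 0.850 kb in WT. At Foxl2, a forkhead gene of the ovary and eyelid, the 2 members were additions to a window already marked in WT, with 41.5 and 40.4 kb in the Kdm6b-cKO replicates, against 33.6 and 32.01 kb in WT. The promoters of Foxl2, Foxb1, Sox10, Sox17 and Six2 were covered over 100% of the TSS ± 3 kb in all 4 libraries, so members near them lay around promoters that carried the mark in WT too.

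Not every developmental family had members. Of 39 Hox genes 0 had one within 50 kb or within 100 kb, where their windows held a median of 25.1 and 101.0 kb of intergenic sequence. In the Fgf pathway 2 of 33 genes had one, Fgf18 and Spry4. The protocadherins and cadherins had 5 of 95, with a median of 0 kb of intergenic sequence in their windows. Olfactory receptors, which are silent outside the nose, had 34 of 1087 (3.13%), and housekeeping genes 0 of 16.

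Among signalling genes the shares were closer to that of all genes. A member lay near 14 of 57 Wnt pathway genes, 10 of 49 BMP and TGF-beta genes and 4 of 18 Hedgehog genes. At Wnt4, which encodes a Wnt ligand, a 6.35 kb member ended 5.45 kb upstream of the TSS and was covered over 4.95 and 3.32 kb in Kdm6b-cKO replicates 3 and 4. Its promoter was marked over 67.3% and 65.6% in the Kdm6b-cKO replicates, against 25.05% and 0% in WT replicates 7 and 9. At Inhbb, the gene of the activin beta B chain, 3 members totalled 8.79 kb, and the promoter was marked over 100% in both Kdm6b-cKO replicates, against 43.2% and 16.7% in WT. At Nog, which encodes the BMP antagonist noggin, a 4.07 kb member lay 14.8 kb upstream, in a window covered over 8.98 and 5.50 kb in the Kdm6b-cKO replicates, against 1.68 and 0 kb in WT. At Gli2, a Hedgehog effector gene, 2 members lay 9.54 and 44.2 kb upstream of a promoter that was unmarked in all 4 libraries.

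Skin and fat genes varied. Of 35 adipocyte lineage genes 9 had a member near (25.7%), and member sequence took 23.2 bp per intergenic kb around the list. Cebpa, a driver of fat cell differentiation, had 4 members of 11.3 kb in total, between 6.56 and 28.7 kb from the TSS. Its window was covered over 22.1 and 34.3 kb in Kdm6b-cKO replicates 3 and 4, against 8.30 and 3.68 kb in WT replicates 7 and 9, and its promoter over 57.6% and 78.5%, against 21.98% and 5.32%. Klf15, another factor of the fat lineage, had a 7.12 kb member 9.89 kb upstream, in a window covered over 36.8 and 35.8 kb in the Kdm6b-cKO replicates, against 11.4 and 4.01 kb in WT. At both genes the Kdm6b-cKO values of the window lay above both WT values, which follows in part from the choice, as the windows include the members. Dermal papilla genes, which mark the mesenchyme at the base of the hair follicle, had 6 of 34 (17.6%), and their 9.88 bp of member sequence per intergenic kb lay below the 11.7 bp of all genes. Among them the window of Rspo4, a Wnt-enhancing R-spondin, was covered over 41.6 and 35.5 kb in the Kdm6b-cKO replicates, against 7.88 and 4.20 kb in WT. The window of Sox18, an endothelial transcription factor gene that dermal papillae also express, was covered over 11.2 and 12.7 kb in the Kdm6b-cKO replicates, against 10.06 and 7.14 kb in WT.

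Keratins and keratin-associated proteins, the filament genes of epidermis and hair, had 32 of 110 genes near a member, but through 17 distinct members. Member sequence took 36.1 bp per intergenic kb around them. Around Krt72, a keratin of the hair root sheath, the window was covered over 56.0 and 54.9 kb in Kdm6b-cKO replicates 3 and 4, against 4.99 and 4.11 kb in WT replicates 7 and 9. In the epidermal differentiation complex 3 of 59 genes, Tchh, Tchhl1 and S100a11, shared a single member of 1.04 kb. Of 18 fibroblast core genes 2 had a member near, Postn and Col6a1, and of 42 collagen genes 7 did (16.7%). The promoters of all 18 fibroblast core genes were unmarked (under 500 bp covered) in each of the 4 libraries, while promoters of keratinocyte markers were marked at 4 of 7 in each Kdm6b-cKO replicate and 3 of 7 in each WT replicate, as were those of immune markers. At Kdm6b itself (chr11:69398508-69413675) no member lay within 100 kb.

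**Figure D5:**
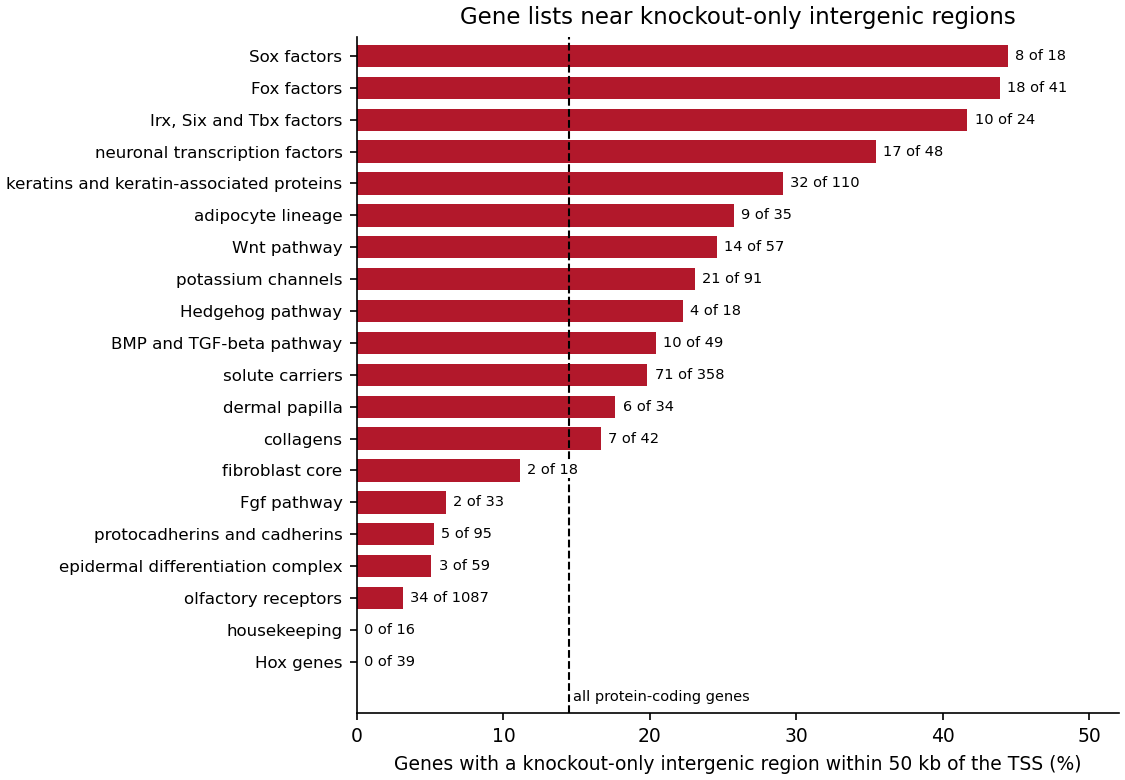
Share of the genes in each list with a member within 50 kb of the TSS (horizontal axis, %), with the number of genes beside each bar and the share of all protein-coding genes as a dashed line. The Sox, the Fox and the joint Irx and Tbx lists reach 41.7% to 44.4%, against 14.5% of all genes, and no Hox or housekeeping gene has a member.

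Among channel and transporter genes the shares were nearer to that of all genes. A member lay near 21 of 91 potassium channel genes and 71 of 358 solute carrier genes. Kcna1, a voltage-gated potassium channel gene of neurons, had 6 members of 26.4 kb in total, the most member length of any gene. Its window was covered over 54.5 and 47.1 kb in Kdm6b-cKO replicates 3 and 4, against 18.6 and 14.9 kb in WT replicates 7 and 9. The longest of the 6 lay 18.3 kb upstream and was covered over 7.24 and 5.37 kb in the Kdm6b-cKO libraries. The window of Slc6a11 held 2 members and was covered over 61.7 and 54.9 kb in the Kdm6b-cKO replicates, against 2.92 and 4.02 kb in WT libraries. Kcnk16, a potassium channel gene of the two-pore family, had 4 members in a window of 19.9 and 18.5 kb in the Kdm6b-cKO replicates, against 0 and 1.63 kb in WT. At Gata5, the gene of a heart and gut factor, 3 members totalled 16.5 kb in a window covered over 65.9 and 79.1 kb in the Kdm6b-cKO replicates, against 16.7 and 14.3 kb in WT. At Adra2b, an adrenergic receptor gene, 4 members totalled 21.04 kb in a window covered over 64.2 and 70.1 kb in the Kdm6b-cKO replicates, against 35.2 and 26.4 kb in WT.

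Noncoding genes lay in some members. A long noncoding RNA gene overlapped 548 members (14.1%), against 18.7% of intergenic regions of all 4 libraries and 10.8% of tiles. The start of one lay in 81 members (2.09%), against 6.65% of regions of all 4 libraries and 0.371% of tiles. Longer regions have more room for a gene or its start, and tiles are 1 kb long, so these shares show no enrichment by themselves. The longest of these 81 was a 13.7 kb member that began upstream of 1700041M05Rik and was covered over 12.7 and 9.05 kb in Kdm6b-cKO replicates 3 and 4. Another, of 9.29 kb, held the whole of Gm32405 in the cluster next to Gm6569, and was covered over 4.90 and 8.29 kb.

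A miRNA gene of GENCODE lay at least in part in 8 members (0.206%), against 0.698% of intergenic regions of all 4 libraries and 0.0582% of tiles. Of the 8 genes, 2 had a mature sequence in the RefSeq table (GRCm38.p6). The mature miRNAs are shown, as the members hold their genes, with the seed (bases 2 to 8) in capitals.
Mir6404, chr7:143933171-143933191: gUGGGAAGugacaagggguag
Mir6236, chr9:110281353-110281371: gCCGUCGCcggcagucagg

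The 2 seeds differ. Mir6404 lay in a 9.83 kb member covered over 8.94 and 4.15 kb in Kdm6b-cKO replicates 3 and 4, with folds of 2.90 and 2.85. Mir6236 lay in a member of 2.35 kb covered over 2.35 and 0.357 kb, with folds of 2.86 and 2.60, so that replicate 4 marked only a small part of it.

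A few members overlapped enhancers that RefSeq annotates from experiments, a comparison added after the members had been examined. Of 1006 annotated enhancers on the autosomes, 25 touched 23 members, which is 0.592% of members, against 0.115% of knockout-only gene body regions, 0.891% of intergenic regions of all 4 libraries and 0.104% of tiles. Longer regions have more room for an element, and tiles are 1 kb long. By their annotation 21 of the 25 were VISTA elements, which drive a reporter in mouse embryos. An element can be active in several tissues, and 8 were active in forebrain, 7 in branchial arch, 6 in limb and 6 in heart. These tissues were not counted over all VISTA elements, so the numbers show no preference of members for a tissue. The longest of the 23 was a 5.78 kb member near Prokr2 around an element active in forebrain, nose and heart, covered over 4.16 and 3.81 kb in Kdm6b-cKO replicates 3 and 4. A 4.67 kb member near Ttc34 held an element active in limb, branchial arch and forebrain and was covered over 4.67 and 3.89 kb.

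The 2 members listed near H19, an imprinted noncoding RNA gene, held enhancers annotated as conserved regions. The nearer, chr7:142570615-142574351, lay 1.18 kb from H19 and was covered over 1.44 and 3.74 kb in Kdm6b-cKO replicates 3 and 4, with folds of 2.91 and 2.78. The other lay 10.4 kb from H19 and was covered over 0.630 and 3.47 kb. In both, replicate 4 marked more than replicate 3. One of these, annotated as an endoderm enhancer, is shown as an example, on the plus strand of mm10 from the RefSeq genome, with its 5 CpG in capitals. The nearer member holds 0.204 kb of it.
CS3 or E1 element, chr7:142570575-142570818: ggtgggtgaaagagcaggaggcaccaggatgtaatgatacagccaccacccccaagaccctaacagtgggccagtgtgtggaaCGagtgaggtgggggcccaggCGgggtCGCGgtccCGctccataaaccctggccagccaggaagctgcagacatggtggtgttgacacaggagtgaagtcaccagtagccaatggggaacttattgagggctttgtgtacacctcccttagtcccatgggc

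The members with the highest fold were of another kind. Of the 20 with the highest mean fold, 9 were repeat-masked over more than 50% of their bases, against 424 of all members (10.9%). The highest, chr9:120777247-120777834, was 0.588 kb long with folds of 4.68 and 4.72 in Kdm6b-cKO replicates 3 and 4, and 43.2% of it was repeat-masked. The second, chr14:5147511-5150445, had folds of 3.86 and 4.35, and all of its 31-base words (100%) were found again in the genome. Over all members 9.81% of such words were found again, against 5.98% in knockout-only gene body regions, 10.7% in intergenic regions of all 4 libraries and 28.6% in WT-only intergenic regions. At least 50% of words were found again in 250 members (6.44%), and without these 3632 members remained, with a median G+C of 48.1%. How the authors' alignment treated reads with several matches is not given in the sources used here, and the part of repeated sequence in these peaks was not tested.

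At the limits of the rule, small differences decided whether a region was a member. The member nearest to a TSS began 3.01 kb from that of Myo16 and was covered over 0.978 and 0.238 kb in Kdm6b-cKO replicates 3 and 4, while a knockout-only region at 2.99 kb from a TSS, of 1.42 kb, was left out as a promoter region. The member nearest to a WT peak, 50.5 kb from Elovl5, lay directly beside it at a distance of 0 kb. A region of 2.70 kb on chromosome 11 was left out for a WT peak of 0.237 kb in replicate 7.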

How the data were processed

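The authors made H3K27me3 ChIP-seq libraries from formaldehyde-fixed fibroblasts with an enzymatic chromatin kit. Tools listed in the submitters' processing notes were MACS2 2.2.7.1, Bowtie2 2.3.5.1, deepTools 3.5.1, SAMtools 1.9 and bcl2fastq, with the build mm10. The authors subsampled the libraries to similar read numbers and called broad peaks in each at q 0.01. The use of the input is not given in the sources used here, and the input was not used here. The deposited lists give, per peak, a start and an end, the authors' fold ratio over background and their −log10 q, both averages over the broad region. Other columns, a display score and a −log10 p, were not used.

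Peaks were merged and placed against GENCODE M21 with own functions, tested on planted intervals, in Python 3.11.15 with numpy 2.4.6 and pandas 2.3.3. Values of a region with several peaks are means weighted by peak length. G+C, CpG and repeats were read from GRCm38.p6, and 1340456 tiles of 1 kb without gaps in the assembly stand for the intergenic autosomes. Words of 31 bases were searched on chromosomes 1 to 19, X and Y.

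The members, gene lists, motifs and alternatives were chosen with earlier results of these data known. Named regions were the 8 longest members, the 6 densest in CpG of at least 1 kb, the 5 of highest mean fold, the 6 largest clusters, members with a miRNA gene or (6 longest) a long noncoding RNA start, and those nearest to a limit. Up to 4 genes per list with the most member length within 50 kb were eligible, and genes with the most member length over all genes, enhancers and H19 were chosen after their values were seen. No test was run on what the rule used, so no p-value is given.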

Additional observations from a re-analysis of the deposited data

Results flagged for a closer look

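The X chromosome was outside the rule. There, 290 intergenic regions were knockout-only by the same peak rule and 58 WT-only, which was singled out as a signal in peaks that the comparisons did not use. The 290 were 8.13% of 3567 intergenic regions on X, a lower share than the 14.5% on the autosomes. Per length this is 2.52 knockout-only regions per intergenic Mb on X, against 2.90 members per Mb on the autosomes. Unlike on the autosomes, the libraries of the 2 genotypes overlapped in covered length on X, with 14.9 and 8.59 Mb in Kdm6b-cKO replicates 3 and 4 and 9.57 and 6.27 Mb in WT replicates 7 and 9. The labels do not give the sex of the embryos, and its part was not tested.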

How the results depend on the processing

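The number of members depended on the peak lists more than on the genes left out. It was 3882 as reported, 2032 with peaks merged within 5 kb, 1376 when bases marked in both Kdm6b-cKO libraries made up at least 50% of the region, 288 with a −log10 q of at least 5 in all lists, 27 with that minimum in the Kdm6b-cKO lists alone, 956 with an equal number of peaks and 53 with an equal covered length. Without one library in turn it ranged from 4312 to 11825, since fewer lists then decide. Leaving out members within 5 kb of a WT peak, an alternative chosen after seeing the data like the 2 on repeats, gave 2393.

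Regions of all 4 libraries were not computed again under each setting, so their 45.2% G+C is the value as reported. The median G+C of members stayed above that value and above the 40.9% of tiles throughout. It was 47.3% with peaks merged within 5 kb, 49.0% under the shared-base minimum, 49.8% and 57.7% with the −log10 q minimum in all lists and in the Kdm6b-cKO lists, 49.3% with an equal number of peaks and 55.8% with an equal covered length. Leaving out one library gave 47.1% to 48.8%. The share of members within 10 kb of a WT peak, 55.1% as reported, was 47.9% and 16.7% with peaks merged within 1 and 5 kb, 13.2% and 63.0% with the −log10 q minimum in all lists and in the Kdm6b-cKO lists, 50.7% with an equal number of peaks, 34.0% with an equal covered length, 40.5% to 57.7% without one library, and 27.2% once members within 5 kb were left out. Merging over a gap, or leaving near members out, lowers this share by construction. Otherwise the cause was not tested.

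Of 20 gene lists, 19 stayed on the same side of the share of all genes when 25 or 100 kb replaced 50 kb, and the Hedgehog list did not, at 5.56% within 25 kb. No paired analysis was possible because the genotypes share no replicate number. With 2 libraries per genotype and no counts, neither sampling error nor the spread between embryos can be given.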

Other observations

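Long members far from any WT peak were few. Of 353 members more than 100 kb from a WT peak, 9 were longer than 5 kb, and 3 of these lay on one stretch of chromosome 15 between Mroh5 and Adgrb1. The longest of the 3, chr15:74045223-74059413, was covered over 11.4 and 14.2 kb in Kdm6b-cKO replicates 3 and 4, and lay 201 kb from the nearest WT peak. A member of 7.06 kb, chr4:44947791-44954847, was covered over 5.75 and 5.54 kb and lay 134 kb from a WT peak. At 34.1 kb from Ces2b, a carboxylesterase gene, a member of 5.21 kb, chr8:104792264-104797472, was covered over 4.57 and 5.21 kb, 132 kb from a WT peak. These were chosen after their values were seen.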
